A study of Homo sapiens with 6 samples.

Results

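Keratins, the filament proteins that give epithelial cells their mechanical strength, were followed in RNA sequencing of 6 libraries from cells labelled U-937. They were picked from the deposited gene table by symbol, as KRT followed by a number and at most 1 letter from A to C, so that keratin-associated proteins and keratin pseudogenes stayed out. In all, 55 keratin genes were found among 47102 names in the table, 26 of type II and 29 of type I. The family was picked because KRT1 differed between the groups in these same libraries. Every difference of a keratin between the groups is therefore given as a description, without a p-value.

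The 3 control libraries came from cells labelled WT. The 3 knockout libraries came from cells in which FOXO3A, the gene of a forkhead transcription factor, had been targeted with guide RNAs. Both groups were grown in RPMI1640 with 15% fetal bovine serum and antibiotics, and no drug or time point is named. The sources used here do not state the guide sequences, the edited site or whether the knockout cells were 1 clone or a pool. The labels do not mention separate cultures, so errors and p-values describe how far these libraries spread, and that spread may be technical only.

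Levels are in FPKM, a fragment count divided by transcript length and library size, so levels of different genes can be compared per unit of length. A value of exactly 0.0001 marks the floor, where no signal was recorded, and between 60.7% and 62.4% of each library's rows held it. Depth was estimated at 4.26 to 5.71 gigabases per library, at which 0.1 FPKM of a 2 kb transcript rests on about 3.02 to 4.05 read pairs. FOXO3 RNA was 4.04 ± 0.355 FPKM (SD, n = 3) in controls and 3.84 ± 0.346 in knockouts, and the difference did not pass the threshold (limma adjusted p = 0.732). An edit that shifts the reading frame need not lower the RNA, so this level checks the labels only weakly. The labels call the cells acute myeloid leukemia cells, whereas 21 of 21 T cell markers with a row of their own had a mean of at least 1 FPKM and 19 of 20 monocyte markers were under it. CD3E, a chain of the T cell receptor complex, lay between 182 and 224 FPKM in the 6 libraries, and CD3D, another chain of it, had means of 170 ± 12.8 and 212 ± 6.99 FPKM. AIF1, the monocyte marker above 1 FPKM, was high in both groups, at 109 ± 16.2 and 121 ± 2.45 FPKM, whereas FCER1G, the next of that list, was at 0.276 ± 0.0731 and 0.397 ± 0.182. The T cell marker sum was 923 to 1001 FPKM in controls and 936.9 to 999 in knockouts, and 3 of the 21 genes rose and 2 fell. Of the B cell markers, IGLL1, part of the surrogate light chain of B cell precursors, fell, with 49.0 ± 3.47 FPKM in controls and 22.5 ± 2.40 in knockouts (limma log2 fold change -1.09 with SE 0.10, adjusted p = 0.00624), while CD79A, a chain of the B cell receptor, was at 39.4 ± 3.84 and 28.1 ± 3.69 FPKM (adjusted p = 0.0741). Any part of such marker changes in the keratin values was not tested. Across the table, 299 of 11162 names with a mean of at least 1 FPKM passed an adjusted p of 0.05, which is 2.68%.

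Keratin filaments are built from pairs of 1 type I and 1 type II keratin. The partners change with the epithelium: KRT5 and KRT14 in basal keratinocytes, KRT1 and KRT10 in the layers above them, KRT2 in the upper layers, and KRT8 and KRT18 in simple epithelia. The type II genes lie together on chromosome 12, with the type I gene KRT18 at one end, and the other type I genes lie on chromosome 17. KRT1 has also been described at the surface of endothelial cells, where it binds kininogen. Blood cells rely on vimentin and lamins as intermediate filaments and are not known for keratin networks.

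Many keratins were silent. Of the 54 keratins with a row of their own, 28 were at the floor in all 6 libraries, 19 of them type I and 9 type II. The other 26 were above the floor in at least 1 library, as were 25284 of all 47102 names in the table. Nothing particular to the family is read from these counts. Of the 26, 15 were above the floor in 1 to 5 libraries, and 11 were above it in all 6. KRT1, KRT10, KRT2 and KRT18 had a mean of at least 1 FPKM over the 6 libraries. KRT81, KRT72, KRT8, KRT7 and KRT73 lay between 0.1 and 1 FPKM, and the other 17 detected keratins lay below 0.1. By place of expression, 10 of 11 type I hair keratins were silent in every library, as were 2 of 6 type II hair keratins, 5 of 9 root sheath keratins, 5 of 9 type I and 5 of 12 type II keratins of stratified epithelia, 1 of 4 simple type I and 0 of 3 simple type II keratins. KRT222 was named only in a row shared with SMARCE1 and AC073508 and cannot be given by itself.

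**Figure D1:**
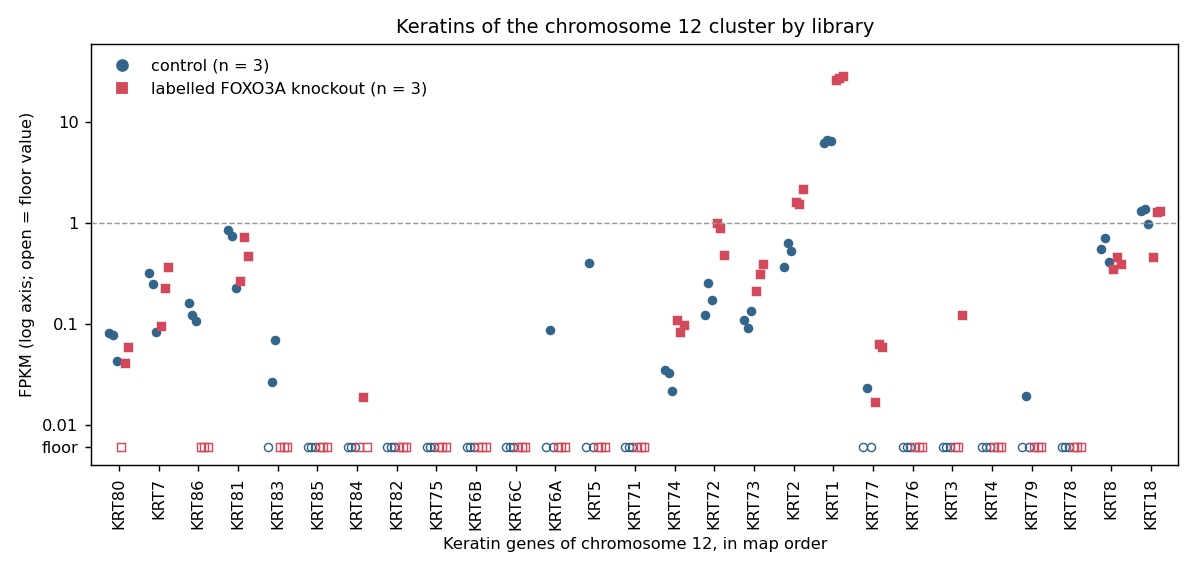
FPKM on a log axis of the 27 keratin genes of chromosome 12 in map order, with 1 point per library, controls as circles and knockouts as squares; open symbols stand on the floor and the dashed line marks 1 FPKM. From KRT74 to KRT1 the knockout points lie above the control points, with the lowest knockout and highest control at 0.211 and 0.136 FPKM in KRT73, where the groups are closest on this axis, and at 26.5 and 6.67 in KRT1.

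KRT1, the type II keratin of the suprabasal epidermis, was the highest keratin in the knockout libraries and was about 4 times its control level. It read 6.29, 6.67 and 6.57 FPKM in the controls and 26.5, 27.4 and 28.6 FPKM in the knockouts. The groups lay far apart and the libraries of each group lay close together. The means were 6.51 ± 0.199 and 27.5 ± 1.04 FPKM, a ratio of 4.23. On the log2(FPKM + 1) scale the difference was 1.92 (SE 0.06, 95% interval 1.77 to 2.08), and leaving out each library in turn moved the ratio only between 4.14 and 4.30. These values stand on an estimated 249 to 331 read pairs per control library and 982 to 1190 per knockout library. In a bulk sample, more cells with KRT1 RNA and more KRT1 RNA per cell cannot be told apart.

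KRT1 lies at chr12:52674736-52680407 on the minus strand (GRCh38), and its row joins the coding transcript, a transcript with a retained intron and assembled transcripts that the reference annotation lacks. It overlaps neither KRT2 nor KRT77 beside it. None of its 2452 different words of 31 bases occurs in another keratin with signal. Read length, mismatch settings and the treatment of reads with several matches are not stated in the sources used here, so read assignment was not tested. Among the names tested, KRT1 stood above 53.0% to 57.4% in the control libraries and above 87.6% to 88.4% in the knockout libraries.

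The keratins beside KRT1 on chromosome 12 were higher in the knockout libraries as well. KRT74, KRT72, KRT73, KRT2, KRT1 and KRT77 follow each other with no other keratin gene between them, over 137.7 kb of a 783.9 kb cluster. This block of 6 was singled out after its values were seen. Of the 26 detected keratins, 5 had every knockout library above every control library, and these were KRT1, KRT2, KRT72, KRT73 and KRT74. The same held for 12% of all names detected in any library, and 9.49% lay the other way, as did 1 keratin, KRT86. In the fit over the whole table, which held 4 keratins, KRT1 and KRT2 were past the limma threshold with the knockout higher, as were 1.38% of the names tested, and none was past it with the control higher, as were 1.3%. Their groups did not overlap, which held in that direction for 17.7% of the names tested. Because KRT1's difference in these libraries chose the family, these calls describe the values and test nothing, and nothing is read from the shares. KRT2 lost that call when any library other than control 1 was left out, with a log2 difference of 0.78 to 0.94 over all leave-outs. KRT72, KRT73, KRT74 and KRT77 were under the filter and were not tested.

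The 250 bases before the RefSeq start are shown for 3 genes of this block and for KRT71, the next keratin on the KRT74 side, which was at the floor in every library, so that genes that were higher and a silent neighbour can be read side by side. KRT73, KRT2, KRT74 and KRT71 are all on the minus strand, at chr12:52618560-52618809, chr12:52652212-52652461, chr12:52573844-52574093 and chr12:52553146-52553395 of RefSeq's GRCh38.p14, and the sequences are given 5′ to 3′ toward the gene.
KRT73: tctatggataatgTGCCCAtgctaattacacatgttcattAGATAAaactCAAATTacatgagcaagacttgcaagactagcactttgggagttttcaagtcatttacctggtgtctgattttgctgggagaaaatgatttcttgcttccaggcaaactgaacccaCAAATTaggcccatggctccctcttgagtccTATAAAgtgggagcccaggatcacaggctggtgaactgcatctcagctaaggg
KRT2: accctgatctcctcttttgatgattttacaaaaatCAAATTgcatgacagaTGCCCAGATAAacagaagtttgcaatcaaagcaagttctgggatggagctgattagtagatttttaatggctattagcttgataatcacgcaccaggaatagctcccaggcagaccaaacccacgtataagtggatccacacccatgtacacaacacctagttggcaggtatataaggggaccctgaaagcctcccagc
KRT74: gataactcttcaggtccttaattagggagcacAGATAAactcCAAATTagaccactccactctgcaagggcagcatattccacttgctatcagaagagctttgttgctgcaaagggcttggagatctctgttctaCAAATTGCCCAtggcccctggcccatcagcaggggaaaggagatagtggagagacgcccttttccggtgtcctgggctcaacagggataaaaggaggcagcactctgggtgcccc
KRT71: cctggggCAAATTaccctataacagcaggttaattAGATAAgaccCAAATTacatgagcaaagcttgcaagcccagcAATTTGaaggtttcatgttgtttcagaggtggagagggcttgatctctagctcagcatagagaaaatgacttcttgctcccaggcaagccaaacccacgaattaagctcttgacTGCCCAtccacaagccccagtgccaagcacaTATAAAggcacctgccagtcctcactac
Capitals mark exact matches, on either strand, to a TATA element and to the runs of 6 bases that all 4 sequences share; where matches overlap they are printed as 1 run of capitals. The shared runs were found in these same sequences. The shared run AGATAA stood in 9.17% of 35116 promoter windows of this length and in 14 of 34 keratin windows. The shared run CAAATT stood in 9.61% of all windows and in 10 of the 34. The shared run TGCCCA stood in 17.1% of all windows and in 9 of the 34. The TATA element was searched as the exact string TATAAA. It stood in KRT73 and KRT71, in 20 of 34 keratin windows and in 10.7% of all windows. Other spellings were not searched, so its absence from KRT2 and KRT74 holds for that string only. The tatataag near the start of KRT2 is not marked. The forkhead motif GTAAACA stood in 2.98% of all windows and in 0 of 34 keratin windows, and the AP-1 motif TGANTCA in 6.57% and 0 of 34. A match is a string of letters and not a bound site. KRT1, KRT72 and KRT77 had no promoter window in the reference used. They are not among the 34 keratin windows and were not searched for any of these motifs.

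KRT2, the type II keratin of the upper epidermis, starts 28.2 kb before KRT1 on the map. It read 0.366, 0.639 and 0.528 FPKM in the controls and 1.64, 1.55 and 2.16 FPKM in the knockouts, on an estimated 16.7 to 31.1 and 59.4 to 88.4 read pairs. Its means of 0.511 ± 0.137 and 1.78 ± 0.330 FPKM gave a ratio of 3.50, and the groups did not overlap. The log2(FPKM + 1) difference of 0.88 (SE 0.12, 95% interval 0.59 to 1.17) understates that ratio because the pseudocount of 1 exceeds the control level.

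KRT72 and KRT73 are type II keratins of the inner root sheath of the hair follicle. KRT72 read 0.122, 0.258 and 0.173 FPKM in the controls against 1.00, 0.904 and 0.482 in the knockouts, a ratio of means of 4.32 on an estimated 4.69 to 10.5 and 16.5 to 30.5 read pairs. KRT73 read 0.111, 0.0923 and 0.136 FPKM against 0.211, 0.312 and 0.392, a ratio of 2.70 on an estimated 4.63 to 5.21 and 7.87 to 16.5 read pairs. Both groups stayed apart in both genes, though in each gene 1 knockout library lay well below the highest. KRT74, a further root sheath keratin, read 0.0352, 0.0331 and 0.0216 FPKM against 0.111, 0.0835 and 0.0987, a ratio of 3.26 that rests on at most an estimated 4.79 read pairs in any library. With each library left out in turn the ratios of means ranged from 3.06 to 3.996 for KRT2, 3.70 to 5.39 for KRT72, 2.32 to 3.12 for KRT73 and 2.86 to 3.57 for KRT74.

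KRT77, on the other side of KRT1, was the exception in the block. It was at the floor in controls 1 and 3, read 0.0230 FPKM in control 2, and read 0.0168, 0.0632 and 0.0595 FPKM in the knockouts. Its groups overlapped, and at no more than an estimated 3.35 read pairs a difference could not be resolved at this depth. Beyond the block, KRT71 on one side and KRT76 on the other were at the floor in all 6 libraries.

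The transcripts of these keratins share little sequence with KRT1. None of the words of 31 bases of KRT2, KRT72, KRT73, KRT74 or KRT77 occurs in KRT1. Between 0.203% and 5.34% of their words occur in some other annotated keratin, whether or not it was detected. The longest run identical with KRT1 was 20 bases in KRT74 and in KRT72, 25 in KRT77, 26 in KRT2 and 27 in KRT73. The antisense gene KRT73-AS1 overlaps KRT73 over 7736 bases and KRT72 over 72 bases on the other strand. It read 0.0128, 0.0121 and 0.0304 FPKM in the controls and 0.123, 0.0457 and 0.0334 in the knockouts, also without overlap. No strand setting is stated in the sources used here, so reads of KRT73 and of KRT73-AS1 cannot be told apart.

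**Figure D2:**
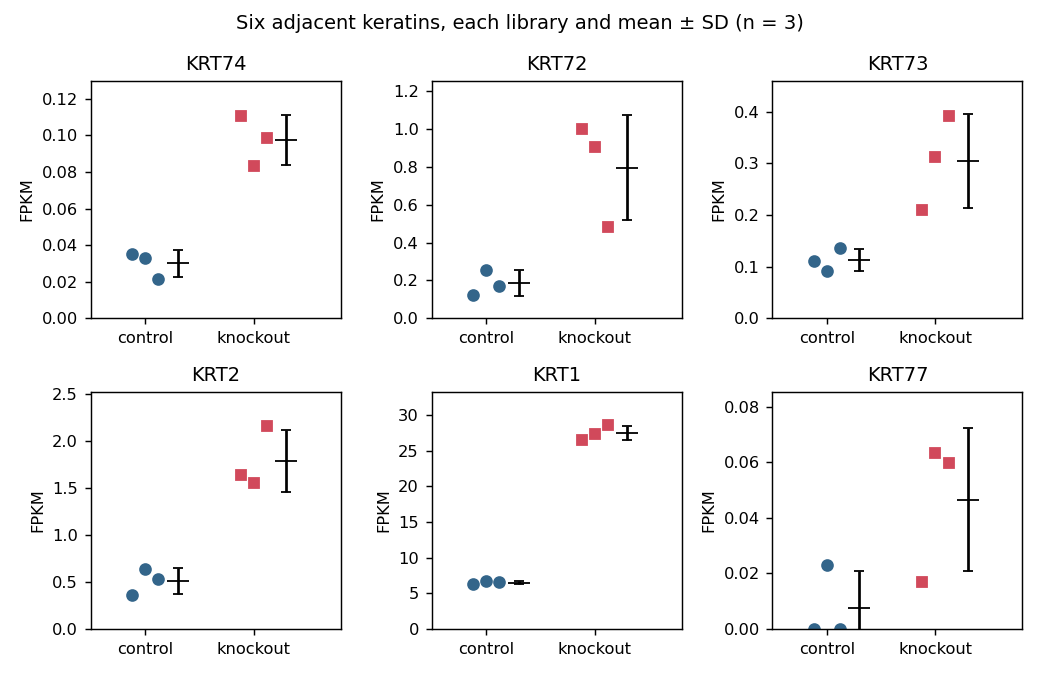
FPKM of the 6 adjacent keratins in map order, each panel with its own linear axis from 0; circles are control libraries, squares knockout libraries, and the bars beside them the mean ± SD (n = 3), with floor values drawn at 0 and the lower control bar of KRT77 running off the axis. In 5 panels the groups stand apart, with KRT1 at 6.29 to 6.67 against 26.5 to 28.6 FPKM, while in KRT77 they overlap.

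KRT10, the type I partner of KRT1, did not share its difference. The gene, at chr17:40818117-40822595 on the minus strand, read 7.73, 8.88 and 6.90 FPKM in the controls and 6.81, 7.49 and 7.16 FPKM in the knockouts. The groups overlapped, with means of 7.84 ± 0.998 and 7.15 ± 0.338 FPKM and a log2 difference of -0.11 (SE 0.10, 95% interval -0.35 to 0.13). In the control libraries KRT1 and KRT10 were at like levels per unit of length, at KRT1 to KRT10 ratios of 0.813, 0.751 and 0.952. In the knockout libraries the ratios were 3.90, 3.66 and 3.996. KRT10 shares no word of 31 bases with any detected keratin.

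The balance between the keratin types shifted with KRT1. Summed type II keratins were 8.37 to 10.2 FPKM in the controls and 30.2 to 33.2 in the knockouts, whereas summed type I keratins were 7.92 to 10.6 and 7.42 to 8.83 FPKM. KRT1 made up 32.2% to 40.3% of all keratin FPKM in the control libraries and 67.4% to 70.5% in the knockout libraries. Within type II its share was 65.6% to 78.5% and 86.1% to 87.8%.

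**Figure D3:**
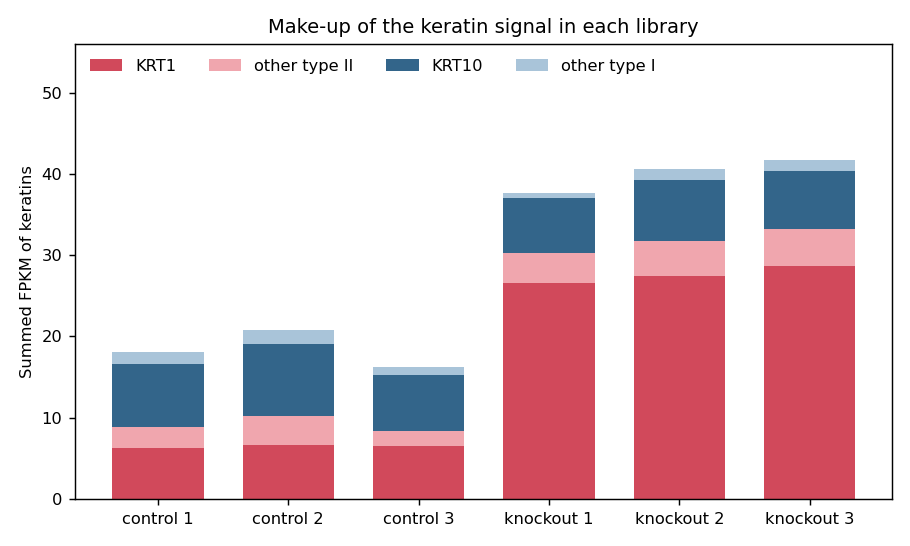
Stacked bars of summed FPKM of the 54 keratins with a row of their own, for each of the 6 libraries, split into KRT1, other type II, KRT10 and other type I. The whole bar is 16.3 to 20.7 FPKM in controls and 37.7 to 41.8 in knockouts, with KRT1 at 6.29 to 6.67 against 26.5 to 28.6 and KRT10 at 6.90 to 8.88 against 6.81 to 7.49.

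KRT8 and KRT18, the pair of simple epithelia, lie next to each other at the end of the chromosome 12 cluster and overlap by 1084 bases on opposite strands, so a few of their reads may be shared. KRT18, the type I member, read 1.32, 1.39 and 0.981 FPKM in the controls and 0.464, 1.29 and 1.31 in the knockouts. Its log2 difference was -0.17 (SE 0.20, 95% interval -0.65 to 0.31), and without knockout 1, the lowest library, it was 0.05. KRT8 read 0.555, 0.707 and 0.409 FPKM against 0.355, 0.466 and 0.395, and its groups overlapped. KRT7, another simple type II keratin, read 0.318, 0.251 and 0.0841 FPKM against 0.0950, 0.228 and 0.367, with an order that crossed between the groups. KRT80 was under 0.1 FPKM in every library.

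Among the hair keratins, KRT86 was the 1 keratin with every control above every knockout. It read 0.161, 0.123 and 0.106 FPKM in the controls, on an estimated 3.65 to 6.81 read pairs, and was listed at the floor in the 3 knockouts, so no fold change is given. Its neighbour KRT81 read 0.864, 0.750 and 0.226 FPKM against 0.270, 0.731 and 0.472, with overlap. KRT81 and KRT86 overlap over 5622 bases on opposite strands and share 820 words. KRT86 also overlaps KRT7 over 2887 bases, with both genes on the plus strand. Other annotated keratins, detected or not, hold 49.1% of the words of KRT81 and 37.2% of those of KRT86. The sources used here do not say how reads of shared words or overlapping genes were divided. The split between KRT81 and KRT86, and that between KRT86 and KRT7, is therefore uncertain. The same holds for KRT83, which was detected in 2 control libraries at 0.0264 and 0.0689 FPKM and shares 23.1% of its words.

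Some keratins, epidermal and other, were above the floor in a single library. KRT5, KRT14, KRT6A, KRT19 and KRT79 were above the floor only in control 2, at 0.407, 0.205, 0.0880, 0.0212 and 0.0194 FPKM. KRT5 and KRT14 are the basal keratinocyte pair, and they rest on an estimated 20.8 and 6.91 read pairs there. KRT3 at 0.123 FPKM and KRT25 at 0.0352 were seen only in knockout 3, and KRT84 at 0.0190 and KRT9 at 0.0258 only in knockout 2. KRT23 was seen only in control 3, at 0.0223 FPKM. KRT1 in control 2 was 6.67 FPKM, beside 6.29 and 6.57 in the other controls. KRT5 and KRT14 were at the floor in the 3 knockout libraries. The source of the reads seen in a single library, and any bearing on KRT1, was not tested. KRT17, a keratin of hair follicles and wounded epidermis, was in all 6 libraries at 0.0189 to 0.142 FPKM, highest in knockout 1.

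Genes around the cluster were listed by position. Of 40 rows reaching within 1 Mb of KRT1 and above the floor in all libraries, 8 had a knockout mean at least 1 log2 unit above the control mean, as had 6.31% of all names above the floor in all libraries. They were 5 of 9 keratins, all in the block that was singled out for its values, and 3 of 31 other rows, namely KRT73-AS1, the pseudogene HIGD1AP1 and ITGB7. Among the 23 neighbours other than keratins that could be tested, 1 rose, 0 fell and 22 did not pass, beside 1.38% higher and 1.3% lower over all names tested. Nothing about the locus is read from 1 call. Their median log2 fold change was -0.07 against 0.02 over all names tested. ITGB7, which encodes the beta 7 integrin chain used by lymphocytes to home to the gut, starts 526.9 kb after KRT1. It read 0.603, 0.534 and 0.670 FPKM in the controls and 1.53, 1.39 and 1.57 in the knockouts (log2 fold change 0.64, SE 0.08, limma adjusted p = 0.0205). Its adjusted p ranged from 0.0143 to 0.111 over the alternatives, and it was 0.0538, 0.0591, 0.0867, 0.0834 and 0.0769 without control 2, control 3 and knockouts 1, 2 and 3. HIGD1AP1 had an adjusted p of 0.0672.

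**Figure D4:**
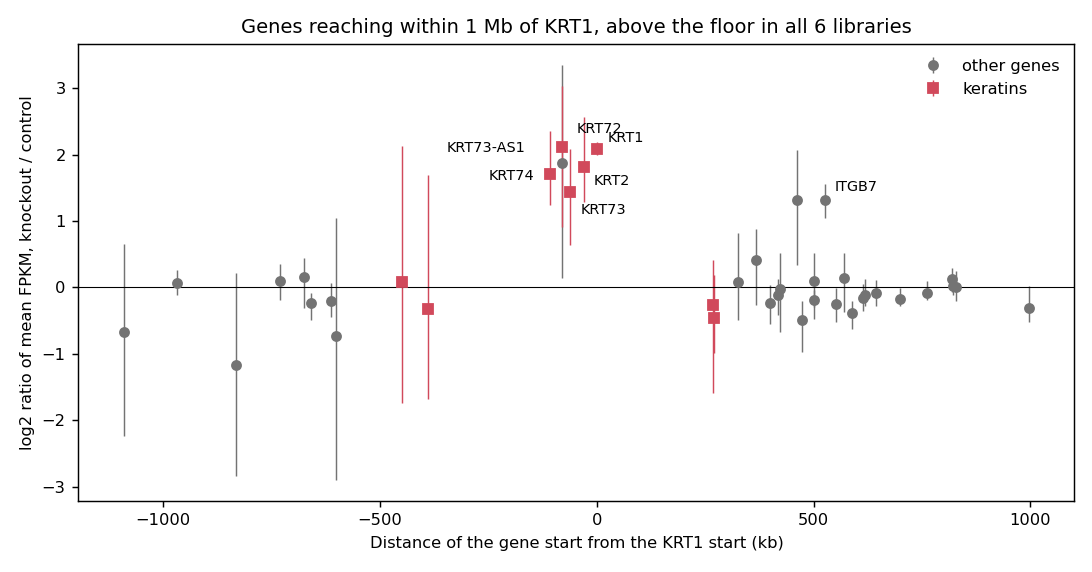
Log2 ratio of mean FPKM, knockout over control, against the distance of each gene start from the KRT1 start in kb, for the 40 rows above the floor in all 6 libraries; bars run from the lowest knockout over the highest control to the highest knockout over the lowest control. The keratins near 0 kb and KRT73-AS1 lie above 1 on the axis, while the other neighbours, apart from HIGD1AP1 and ITGB7, lie below 1.

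Few other genes of keratinocytes were high enough to be tested. Of 44 genes of the cornified envelope, the protein shell of the outermost skin cells, none reached a mean of 1 FPKM and 29 were at the floor in all libraries, so none was tested. The highest value in the list was 0.706 FPKM. The members with the highest means were CSTA, a protease inhibitor, at 0.349 ± 0.160 and 0.535 ± 0.156 FPKM, CNFN at 0.432 ± 0.157 and 0.324 ± 0.0481, the crosslinking enzyme TGM1 at 0.276 ± 0.0308 and 0.316 ± 0.0303, and TCHH, a protein of the root sheath, at 0.226 ± 0.0607 and 0.305 ± 0.0614. The sum over the list was 1.75 to 2.14 FPKM in the controls and 2.34 to 2.41 in the knockouts. Without S100A9, a member picked out after its values were seen, the sums were 1.75 to 2.05 and 1.87 to 2.03 FPKM and overlapped.

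Desmosome proteins and keratin anchors tie keratin filaments to the cell border. Of 26 genes, 8 were tested, 0 rose and 0 fell, with a median log2 fold change of -0.10. DSG2, a desmosomal cadherin, was at 10.3 ± 2.40 and 11.7 ± 0.337 FPKM (limma adjusted p = 0.484). ITGA6, the integrin chain of hemidesmosomes, read 1.88, 2.38 and 1.70 FPKM in the controls and 2.77, 5.75 and 4.55 in the knockouts, without overlap but with a wide spread (log2 fold change 0.81, SE 0.22, limma adjusted p = 0.0924). PKP4 and TCHP had adjusted p-values of 0.149 and 0.891.

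Among regulators known from keratinocyte differentiation, 16 of 40 could be tested, and 2 rose, 0 fell and 14 did not pass. Across all names tested, 1.38% rose and 1.3% fell. The median log2 fold change was -0.17 in the list and 0.02 over all names tested. The list was chosen with earlier results of these data known, so nothing is read from the count. HES1, a repressor that Notch signaling switches on, read 1.73, 1.87 and 1.70 FPKM in the controls and 3.43, 3.46 and 3.55 in the knockouts (log2 fold change 0.70, SE 0.07, limma adjusted p = 0.0115). Over the alternatives its adjusted p ranged from 0.00774 to 0.107, and it was 0.0511, 0.0573, 0.0670 and 0.0596 without control 3 and knockouts 1, 2 and 3. BCL11B, a zinc finger factor of skin and of T cells that is also on the T cell list, rose, with 12.8 ± 0.372 FPKM in controls and 16.7 ± 0.575 in knockouts (limma log2 fold change 0.36 with SE 0.06, adjusted p = 0.0450). That call was lost in 10 of 15 alternatives, with adjusted p-values of 0.0439 to 0.179 over all of them. Without control 2, control 3 and knockouts 1, 2 and 3 the adjusted p of BCL11B was 0.0911, 0.103, 0.131, 0.179 and 0.112.

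Among the other intermediate filament genes, VIM and LMNB1 were well above KRT1 in both groups, and 11 of the 16 with a row of their own were under 1 FPKM. Of 17 genes in all, 5 were tested, 0 rose and 0 fell, and the median log2 fold change was 0.07. VIM, the filament of blood and connective tissue cells, was at 77.5 ± 3.38 FPKM in controls and 81.6 ± 5.69 in knockouts (limma adjusted p = 0.560). LMNB1, a nuclear lamin, was at 82.5 ± 2.33 and 88.8 ± 7.89 FPKM (limma adjusted p = 0.452). LMNB2 ranged from 1.15 to 14.5 FPKM within the controls alone, with an adjusted p of 0.743, and IFFO2 had an adjusted p of 0.0772.

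Proteins described as partners of KRT1 at the endothelial surface formed the last list. Of its 10 genes, 2 could be tested, and neither passed. PLAUR, the urokinase receptor, was at 2.83 ± 0.106 and 3.26 ± 0.0842 FPKM (log2 fold change 0.15, limma adjusted p = 0.242). SRC, a tyrosine kinase, was at 4.67 ± 0.171 and 4.70 ± 0.352 FPKM (limma adjusted p = 0.968), with a sign that changed under other scalings. C1QBP and RACK1 were named only in rows shared with other genes. F12, the contact factor of coagulation, was at 0.857 ± 0.115 and 0.567 ± 0.0205 FPKM, and KLKB1, which encodes prekallikrein, at 0.104 ± 0.0139 and 0.180 ± 0.0606, both under the filter and untested.

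Epithelial markers were low in both groups. Of the 12 with a row of their own, 11 were under 1 FPKM, and their sum was 2.60 to 3.37 FPKM in the controls and 2.13 to 2.29 in the knockouts. ESRP1, an epithelial splicing factor, was the 1 tested and was at 1.75 ± 0.351 and 1.19 ± 0.222 FPKM (limma adjusted p = 0.185). SPINT1, an epithelial protease inhibitor, was at 1.09 ± 0.228 and 0.874 ± 0.113 FPKM. Of the fibroblast markers 7 of 8 were under 1 FPKM. THY1, which T cells can also carry, was the exception at 7.01 ± 0.555 and 7.08 ± 0.489 FPKM, with a sign that changed under other scalings, and COL1A1, a collagen chain, was at 0.188 ± 0.0252 and 0.213 ± 0.125. Of the melanocyte markers 7 of 7 were under 1 FPKM, with PMEL at 0.0568 ± 0.0290 and 0.0957 ± 0.0656 and MLANA at 0.00243 ± 0.00403 and 0.0229 ± 0.0216.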

How the data were processed

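The 6 libraries were analysed from 1 deposited gene table. Its values are FPKM as the authors deposited them, in a column for each library. The submitters' processing notes name hg38 as the build and list Bowtie 0.12.9, Cufflinks 2.1.1 and HTSeq without their roles. A SMARTER mRNA kit was used on total RNA, per the labels' protocols. Some rows are loci of a merged assembly, so a value can include transcripts absent from the annotation.

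Identical rows of a name were dropped (4865 of 56418) and the rest summed. limma 3.58.1 in R 4.3.3 was run on log2(FPKM + 1) with a mean-variance trend, two-sided, with Benjamini-Hochberg adjustment at 0.05 over 11162 names with a mean of at least 1 FPKM. It was tested on simulated data first. Group values are means ± SD, and log2 differences are knockout minus control.

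FPKM holds no counts. In low rows with 1 transcript, FPKM times length fell within 0.1 of a whole step for 76.8% to 78.7% of values, against 20% by chance. Taking the step as 1 base gave the depths, and the most frequent value, 282 steps, was taken as a read pair. The pairs are estimates on the longest annotated transcript (GENCODE 29), and no count model was run.

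Keratins named had a mean of at least 0.1 FPKM in either group; of other lists and neighbours, members past the threshold or otherwise the 4 highest were named, and of marker lists the 2 highest. KRT74, KRT77 and other keratins under that level, KRT73-AS1 and HIGD1AP1 were named after their values were seen. The members and lists were chosen with earlier results of these data known. Same-numbered libraries were not pairs: their deviations correlated at 0.0984, -0.0392 and 0.0162. Alternatives covered the pseudocount, filter, scaling, trend, block, row choice and each library left out.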

Additional observations from a re-analysis of the deposited data

How the results depend on the processing

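The log2 difference of KRT1 was 1.88 to 2.08 over the 15 alternatives and 1.90 to 1.95 with each library left out. The calls on keratins describe the values that chose the family and test nothing. The 2 keratins past the threshold were KRT1 and KRT2 under most settings, KRT1 and (with the control higher) KRT86 when low values were not filtered, and KRT1 alone, a count of 1, with the replicate block; with each library left out the count was 1 to 2. Over the table, 299 names passed (154 higher, 145 lower), against 193 with no filter, 542 with quantile normalization, 27 with the replicate block, and 68 to 929 with each library left out, 929 without control 1. Scaling to a common upper quartile gave 429 with 170 higher and 259 lower. The context lists held 2 calls, against 4 with quantile normalization, 0 with the block and 0 to 2 with each library left out; neighbours held 1, against 0 with the block and 0 to 1. The causes were not tested. The sample titles give the replicate number and no pairing, and control 2 correlated best with knockout 3 (0.155). Signs turned for FOXO3 without knockout 3 and KRT18 without knockout 1, whose ranges with a library left out were -0.118 to 0.000274 and -0.279 to 0.0502. Under upper quartile scaling and quantile normalization they turned for SRC (-0.0352 and -0.0568), TCHP (-0.0154 and -0.0232) and THY1 (-0.0328 and -0.0537), and with a library left out these ranged from -0.0436 to 0.0379, -0.0339 to 0.0558 and -0.0363 to 0.0632. Depth limits KRT74, KRT77 and KRT86, which rest on fewer than 7 estimated read pairs per library.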

Other observations

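Relatives of the keratins outside the family were mostly silent. Of 112 names that start with KRTAP, 101 were at the floor in all libraries, and the highest mean was 0.145 FPKM for KRTAP5-9. These names hold the genes of keratin-associated proteins, which form the matrix of the hair shaft. They also hold pseudogenes such as KRTAP8-2P and the antisense gene KRTAP5-AS1. Of 147 keratin pseudogenes, 107 were at the floor in all libraries and 5 had a mean of at least 0.1 FPKM. KRT8P12 was the highest of them, at 2.27 ± 0.256 FPKM in controls and 2.12 ± 0.274 in knockouts (log2 fold change -0.07, limma adjusted p = 0.708). That is above KRT8 itself, at 0.557 ± 0.149 and 0.405 ± 0.0558 FPKM. Sequence shared by keratins and keratin pseudogenes was not counted, and how reads with several matches were treated is not stated. The split between KRT8 and KRT8P12 is therefore uncertain.

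The pseudogene KRT125P, between KRT77 and KRT76 on the map, was at the floor in the 3 controls and in knockout 2, and read 0.0395 and 0.0368 FPKM in knockouts 1 and 3. S100A9, a calcium-binding protein of myeloid cells and of stressed skin on the cornified envelope list, was at the floor in controls 1 and 3, read 0.0938 FPKM in control 2, and read 0.415, 0.312 and 0.472 FPKM in the knockouts; it was picked after its values were seen, and it passed the threshold when the filter was set to a mean of 0.1 FPKM or dropped.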
